A study of Homo sapiens with 12 samples.

Results

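The genes described here are TXNIP, its arrestin-domain relatives ARRDC1, ARRDC2, ARRDC3 and ARRDC4, and the glucose-sensing transcription factors MLXIP (MondoA), MLXIPL (ChREBP) and MLX. They were taken by symbol from the expression tables of both lines, and all 8 were found among the 26115 genes that the tables share. The group was chosen by values of these data: the rise of TXNIP in hypoxic KYSE150 cells and the opposite responses of ARRDC4 in the 2 lines drew attention to it. The values of TXNIP and ARRDC4 are therefore given as a description without a test, and the other 6 genes entered as relatives or partners by name.

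The study measured messenger RNA in KYSE410 and KYSE150, established human esophageal squamous carcinoma cell lines, to describe their response to low oxygen. The 4 groups were KYSE410 in 0.5% oxygen (hypoxia), KYSE410 in 21% oxygen (normoxia), KYSE150 in 0.5% oxygen and KYSE150 in 21% oxygen, each with 3 libraries. All cells carry the genotype label WT, and neither the labels nor the design text name another agent. The hypoxic groups have a time point of 48 h, whereas normoxic samples have a time point of 0 in their labels and the same 48 h in the design text, so the duration of the normoxic culture is not settled.

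Alpha-arrestins are adaptor proteins that bind membrane proteins and recruit ubiquitin ligases of the NEDD4 family, so that the bound cargo is internalised and sorted for degradation. TXNIP is the best-known member: it binds thioredoxin, promotes internalisation of the glucose transporters GLUT1 and GLUT4 and lowers glucose uptake, and ARRDC4 is its closest relative and shares the effect on glucose uptake. Transcription of TXNIP and ARRDC4 is controlled by MondoA or ChREBP, which pair with MLX, sense glucose 6-phosphate and bind carbohydrate response elements made of paired E-box-like sequences. In hypoxic tumour cells glycolytic flux generally increases, which links oxygen supply to this sensing pathway.

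The promoters of TXNIP, ARRDC4 and ARRDC3 are shown because these 3 genes had the largest changes of the group within a line, and the first 2 are reported targets of the glucose-sensing factors. The 250 bases before the annotated start are given 5′ to 3′ on the strand of the gene, from RefSeq on GRCh38.p14. Capitals mark the E-box CACGTG, paired E-box-like elements that match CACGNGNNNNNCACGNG, and the box CCAAT with its reverse complement ATTGG.
TXNIP, chr1:145996580-145996829, minus strand: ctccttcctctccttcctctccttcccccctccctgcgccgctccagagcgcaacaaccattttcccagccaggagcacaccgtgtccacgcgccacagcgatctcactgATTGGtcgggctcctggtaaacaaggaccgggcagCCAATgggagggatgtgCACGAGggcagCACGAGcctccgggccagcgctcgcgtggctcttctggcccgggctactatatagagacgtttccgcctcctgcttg
ARRDC4, chr15:97960453-97960702, plus strand: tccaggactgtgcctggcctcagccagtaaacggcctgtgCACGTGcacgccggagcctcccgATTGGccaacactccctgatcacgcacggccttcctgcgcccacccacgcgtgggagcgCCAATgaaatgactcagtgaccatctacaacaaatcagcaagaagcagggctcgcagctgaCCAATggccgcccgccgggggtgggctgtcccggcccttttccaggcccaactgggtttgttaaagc
ARRDC3, chr5:91383318-91383567, minus strand: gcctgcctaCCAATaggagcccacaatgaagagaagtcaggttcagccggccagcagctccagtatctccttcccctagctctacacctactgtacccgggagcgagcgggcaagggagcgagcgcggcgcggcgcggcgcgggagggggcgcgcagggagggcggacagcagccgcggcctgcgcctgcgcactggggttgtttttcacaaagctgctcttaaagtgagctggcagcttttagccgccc

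Both strands of the full RefSeq windows, 250 bases before and 50 bases after each start, were searched, and all 8 genes had at least 1 of 11 windows. TXNIP carried the pair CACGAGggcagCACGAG from -88 to -72, with a CCAAT box on either side of position -124, where the forkhead motif GTAAACA begins. Only 20 of 35116 promoter windows matched the paired pattern, and among the 8 genes only this TXNIP window did. Pairs that depart from this exact pattern were not searched for, so the other genes may hold paired elements that were missed. A second TXNIP window at chr1:145995695-145995994 contained neither the pair, the E-box nor CCAAT. The single E-box CACGTG, present in 7.26% of all windows, was found in ARRDC4 from -210 to -205 and in MLX from -50 to -45. ARRDC4 also held 3 CCAAT boxes. At least 1 CCAAT box occurred in 34.61% of all windows and in a window of each of the 8 genes except MLXIPL, and the share of windows with 3 was not counted. The ARRDC3 window printed above held 1 CCAAT box and no E-box. A second ARRDC3 window at chr5:91380048-91380347 held neither, but 1 match to the forkhead motif, TGTTTAC, from -29 to -23. The short core motifs ACGTG and GCGTG, which occur in 21.41% and 36.54% of windows and of which ACGTG lies inside every CACGTG, matched no window of ARRDC1, ARRDC3 or MLXIPL. Of the 20 genes with the paired pattern, 14 were tested in KYSE410, where 5 were called higher and 6 lower in hypoxia, against 31.2% higher and 51.9% lower of all genes tested. In KYSE150 16 were tested, of which 4 were called higher and 6 lower, against 23.5% higher and 38.8% lower of all genes, and nothing is read from these counts.

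**Figure D1:**
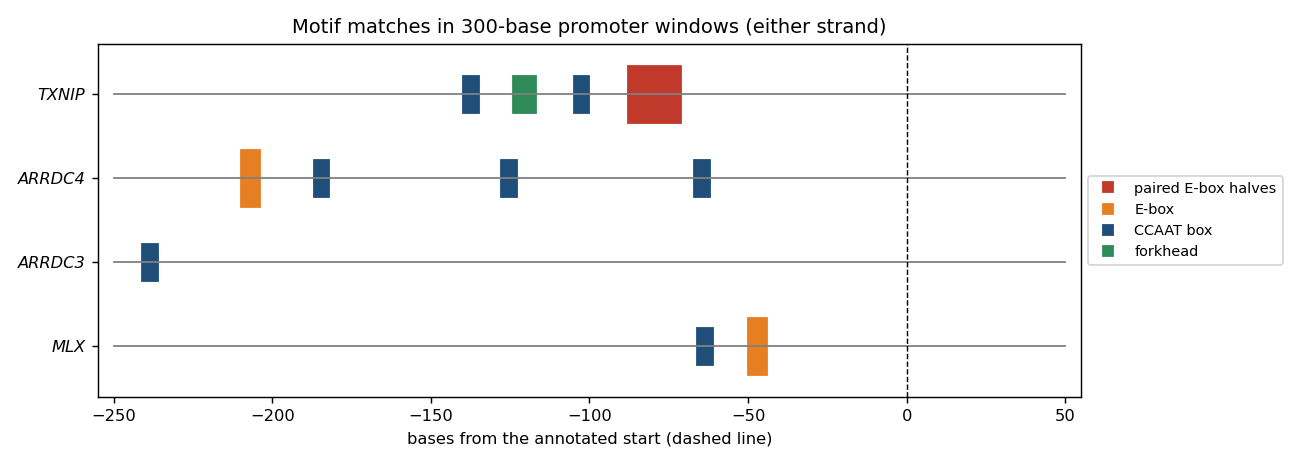
Motif matches on either strand in 1 RefSeq promoter window each of TXNIP, ARRDC4, ARRDC3 and MLX (the upstream windows of TXNIP and ARRDC3, whose second windows are not drawn), plotted as distance in bases from the annotated start (dashed line). The paired elements of TXNIP lie from -88 to -72, the E-boxes of ARRDC4 and MLX from -210 to -205 and from -50 to -45, and the ARRDC3 window drawn has 1 CCAAT box.

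Values are FPKM (read fragments per kilobase of transcript and per sequenced library total), which correct for transcript length and so allow levels of different genes to be compared. Changes are on the log2(FPKM + 1) scale, where the added 1 shrinks the change of genes with low values, and a gene was called at a limma p under 0.05 after Benjamini-Hochberg adjustment over all genes that averaged at least 1 FPKM. KYSE150 normoxia replicate 2 stood apart from the other libraries of its group, with an SD of the log2 difference of 0.339 and 0.369, against 0.153 to 0.197 in the other 10 same-group pairs. Numbers that end the label descriptions were 56 to 58 in hypoxic and 38 to 40 in normoxic KYSE410 libraries. In KYSE150 they were 53 to 55 in hypoxia and 50 to 52 in normoxia. The labels do not say what these numbers stand for. They separate the oxygen levels in both lines, with a gap in KYSE410, so anything that follows them cannot be told apart from oxygen. This limit extends to the differences between lines, which use the same groups. Squamous and epithelial markers averaged at least 1 FPKM for 10 of 12 genes in KYSE410 and for 6 of 12 in KYSE150, where the basal keratin gene KRT5 averaged 0.0777 FPKM in hypoxia and was listed at 0 in all 3 normoxic libraries, and TP63 averaged 0.211 FPKM in hypoxia and 0.283 FPKM in normoxia. SOX2 averaged under 0.1 FPKM in all 4 groups. Of the markers of blood, endothelium, fibroblasts and muscle, 2 of 12 listed genes averaged at least 1 FPKM in both KYSE410 groups, against 3 of 14 in hypoxic and 5 of 14 in normoxic KYSE150 cells, and the blood-cell marker PTPRC stayed under 0.02 FPKM in every group average. The summed level of that list was 83.4 to 88.9 FPKM in hypoxic and 33.4 to 35.5 FPKM in normoxic KYSE410 libraries, and 35.3 to 39.2 FPKM in hypoxic and 27.3 to 28.6 FPKM in normoxic KYSE150 libraries, most of it from the lysosomal gene CD68; its part in the results was not tested. In these bulk cultures fewer expressing cells and less RNA per cell cannot be told apart.

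TXNIP (chr1:145992435-145996600 on hg38, minus strand) responded in KYSE150 and was close to undetected in KYSE410. In hypoxic KYSE410 libraries it was listed at 0.0146, 0 and 0.0151 FPKM, and in normoxic KYSE410 libraries at 0, 0.0193 and 0 FPKM. In all, 3 of 6 KYSE410 libraries listed the gene at 0, the groups overlapped, and no fold is given; with a mean under 1 FPKM it was not tested in that line. In KYSE150 it had 89.4, 90.4 and 93.4 FPKM in hypoxia, against 3.08, 3.30 and 3.91 FPKM in normoxia. The KYSE150 groups lay far apart, with a mean of 91.1 ± 2.07 FPKM in hypoxia and 3.43 ± 0.431 FPKM in normoxia (SD, n = 3 each), which is 26.5-fold higher in hypoxia. This log2 change of 4.38 ± 0.09 (SE) ranked 3rd highest of 12692 genes tested in KYSE150, and it ranged from 4.32 to 4.70 over 15 alternative settings. Levels of 6 genes next to TXNIP varied widely, and the 4 other than POLR3GL and LIX1L had group means of 0.107 to 5.40 FPKM. POLR3GL, an adjacent gene for a subunit of RNA polymerase III, averaged 12.3 FPKM in hypoxic and 18.6 FPKM in normoxic KYSE410 cells, and 16.0 FPKM in hypoxic and 20.1 FPKM in normoxic KYSE150 cells. LIX1L, also nearby, averaged 6.03 FPKM in hypoxic and 1.99 FPKM in normoxic KYSE410 cells, and 18.0 FPKM in hypoxic and 9.54 FPKM in normoxic KYSE150 cells. The neighbour between them, ANKRD34A, averaged 0.107 FPKM in hypoxic and 0.365 FPKM in normoxic KYSE410 cells, and 0.230 FPKM in hypoxic and 0.405 FPKM in normoxic KYSE150 cells. These 3 neighbours are named after their values were seen.

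The genes whose pattern over the 12 libraries was most like that of TXNIP were CXCR4, EDN2 and PCK1. Likeness was the root-mean-square difference of log2 values after each gene's own mean was subtracted, ranked over 12652 other genes, and it was 0.413 for CXCR4, 0.767 for EDN2 and 0.852 for PCK1. CXCR4, a chemokine receptor, averaged 50.9 FPKM in hypoxic and 4.12 FPKM in normoxic KYSE150 cells, with averages of 0.0163 FPKM in hypoxic and 0.0105 FPKM in normoxic KYSE410 cells. EDN2, which encodes the vasoactive peptide endothelin 2, averaged 50.7 FPKM in hypoxic and 0.388 FPKM in normoxic KYSE150 cells, and PCK1, a gluconeogenic enzyme, averaged 32.7 FPKM in hypoxic and 0.199 FPKM in normoxic KYSE150 cells. All 3 averaged under 0.2 FPKM in both KYSE410 groups. Within the family the nearest in pattern was MLXIPL at rank 520 (1.88), and ARRDC4, the closest relative of TXNIP, was at rank 12207 (3.51). These ranks mix differences between lines with the response to oxygen. MLXIPL was lower in hypoxic KYSE150 cells (6.05 against 7.88 FPKM in normoxia), where TXNIP and ARRDC4 were higher.

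ARRDC4 (chr15:97960698-97973838, plus strand) went in opposite directions in the 2 lines. In KYSE410 it had 3.77, 3.88 and 4.01 FPKM in hypoxia, against 22.3, 23.6 and 32.4 FPKM in normoxia. All hypoxic KYSE410 libraries lay below all normoxic ones, and the mean was 3.89 ± 0.124 FPKM in hypoxia and 26.1 ± 5.49 FPKM in normoxia (SD, n = 3 each). The KYSE150 libraries had 2.68, 3.01 and 3.07 FPKM in hypoxia, against 1.12, 0.834 and 0.915 FPKM in normoxia. Here all hypoxic libraries lay above all normoxic ones, at low levels, with a mean of 2.92 ± 0.208 FPKM in hypoxia and 0.956 ± 0.147 FPKM in normoxia (SD, n = 3 each). The log2 change was -2.45 ± 0.12 (SE) in KYSE410, the 57th lowest of 12054 genes, and 1.00 ± 0.10 in KYSE150, where it was 1.52 when 0.1 was added in place of 1. In hypoxia the lines were closer to each other than in normoxia: the difference of KYSE410 minus KYSE150 was 0.32 in hypoxia and 3.77 in normoxia on the log2 scale.

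ATP2C2 and HBEGF were among the genes most like ARRDC4 in pattern, each with a root-mean-square difference of 0.464. ATP2C2 encodes a calcium pump of the secretory pathway and HBEGF a ligand of the EGF receptor. HBEGF averaged 1.67 FPKM in hypoxic and 24.6 FPKM in normoxic KYSE410 cells, and 1.98 FPKM in hypoxic and 1.50 FPKM in normoxic KYSE150 cells. ATP2C2 averaged 2.25 FPKM in hypoxic and 17.3 FPKM in normoxic KYSE410 cells, and 0.262 FPKM in hypoxic and 0.157 FPKM in normoxic KYSE150 cells. Both genes, like ARRDC4, were highest in the normoxic KYSE410 cells.

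**Figure D2:**
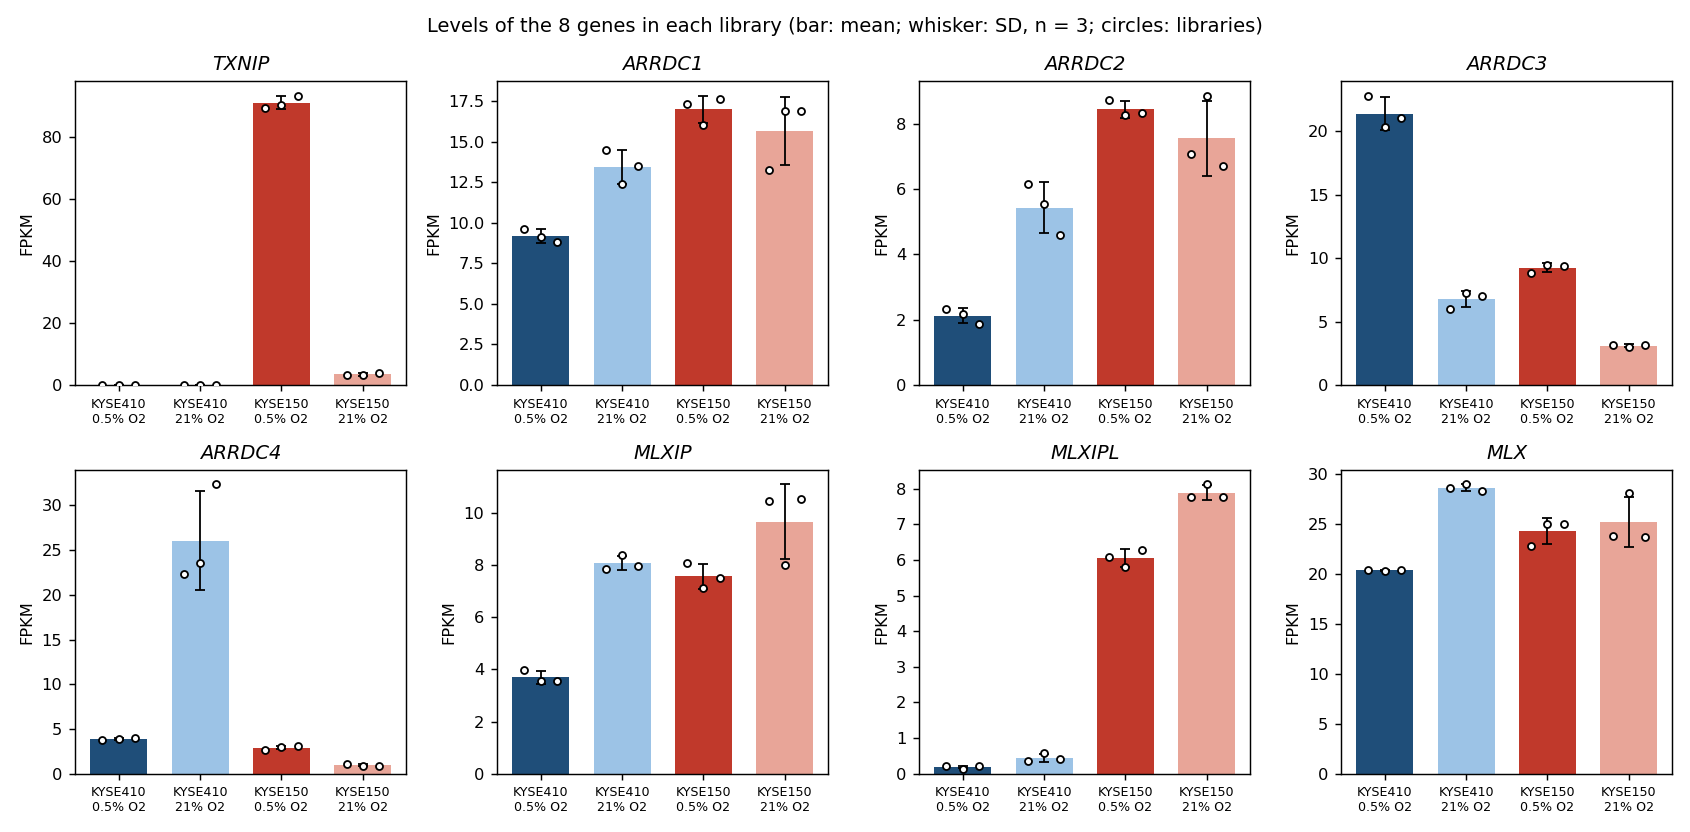
Levels of the 8 genes in FPKM (vertical axes, linear from 0) in hypoxic and normoxic KYSE410 and KYSE150 libraries; bars are means, whiskers SD (n = 3) and circles single libraries. TXNIP stands at 89.4 to 93.4 FPKM in hypoxic KYSE150 libraries alone, ARRDC4 at 22.3 to 32.4 FPKM in normoxic KYSE410 libraries, and ARRDC3 is higher in hypoxia in both lines.

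ARRDC3 (chr5:91368724-91383359, minus strand), an arrestin reported to direct the beta2-adrenergic receptor and integrin beta4 to degradation, rose in both lines. In KYSE410 it had 22.8, 20.3 and 21.0 FPKM in hypoxia, against 6.02, 7.22 and 6.98 FPKM in normoxia. The KYSE150 values were 8.83, 9.45 and 9.41 FPKM in hypoxia, against 3.16, 2.98 and 3.14 FPKM in normoxia. The groups were apart in both lines, and the mean was 3.17-fold higher in hypoxia in KYSE410 and 2.98-fold higher in KYSE150. The log2 change was 1.53 ± 0.07 (SE; limma adjusted p = 1.698e-07) in KYSE410 and 1.32 ± 0.08 (limma adjusted p = 6.921e-06) in KYSE150, and all 15 alternative settings left it called in each line. The difference between these responses, 0.21 ± 0.10, did not pass the test (limma adjusted p = 0.0825). It was -0.02 when libraries were scaled to a common sum, and it was called at 0.41 (limma adjusted p = 0.00176) with the trend over transcript length removed and under median-of-ratios scaling (limma adjusted p = 0.0208). The opposite-strand gene ARRDC3-AS1 shares 145 of 4934 exonic bases with ARRDC3, and without a stated strand setting reads there cannot be assigned to either gene; it averaged 0.204 FPKM in hypoxic and 0.394 FPKM in normoxic KYSE410 cells and 0.283 FPKM in hypoxic and 0.705 FPKM in normoxic KYSE150 cells. ITGB4, the gene of integrin beta4, rose as well, with a log2 change of 1.27 in KYSE410 and 1.18 in KYSE150 (limma adjusted p at most 6.725e-05).

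ARRDC1 and ARRDC2 fell in KYSE410 and were not called in KYSE150. ARRDC1 (chr9:137605654-137615360, plus strand) recruits ESCRT proteins at the plasma membrane and drives the budding of small extracellular vesicles. It had 9.62, 9.11 and 8.80 FPKM in hypoxic and 14.5, 12.4 and 13.5 FPKM in normoxic KYSE410 libraries, without overlap. In KYSE150 the libraries overlapped, with 17.3, 16.0 and 17.6 FPKM in hypoxia and 13.2, 16.9 and 16.9 FPKM in normoxia. The log2 change of ARRDC1 was -0.50 ± 0.06 (SE; limma adjusted p = 8.224e-05) in KYSE410 and 0.12 ± 0.11 (limma adjusted p = 0.362) in KYSE150. The fall in KYSE410 was -0.31 under median-of-ratios scaling and -0.28 with the length trend removed, both still called. ARRDC1 shares 29 of 3821 exonic bases with ARRDC1-AS1 on the opposite strand, whose log2 change was -1.10 in KYSE410 and -0.39 in KYSE150, and 183 with a same-strand transcript.

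ARRDC2 (chr19:18001132-18014102, plus strand), a less studied member of the family, had 2.31, 2.19 and 1.87 FPKM in hypoxic and 6.15, 5.55 and 4.59 FPKM in normoxic KYSE410 libraries. It was lower in every hypoxic KYSE410 library than in any normoxic one, and its mean there was 2.12 ± 0.228 FPKM in hypoxia and 5.43 ± 0.784 FPKM in normoxia (SD, n = 3 each). In KYSE150 it had 8.74, 8.26 and 8.33 FPKM in hypoxia and 7.06, 8.87 and 6.72 FPKM in normoxia, so that the highest normoxic library, replicate 2, was above all hypoxic ones. The log2 change was -1.04 ± 0.10 (SE; limma adjusted p = 1.619e-05) in KYSE410 and 0.15 ± 0.11 (limma adjusted p = 0.241) in KYSE150. Without KYSE150 normoxia replicate 2 the KYSE150 value was 0.26 and was called (limma adjusted p = 0.00542). Under median-of-ratios scaling and with the length trend removed, both ARRDC1 (limma adjusted p = 0.0478 and 0.0316) and ARRDC2 (limma adjusted p = 0.0431 and 0.0345) were called higher in hypoxic KYSE150 cells. ARRDC2 shares 442 of 4637 exonic bases with an unnamed opposite-strand transcript.

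Of the glucose-sensing factors, MLX, the shared partner that both others need to bind DNA, was the most abundant in every group. MLX (chr17:42567068-42573239, plus strand) had 20.5, 20.4 and 20.4 FPKM in hypoxic and 28.6, 29.0 and 28.3 FPKM in normoxic KYSE410 libraries. The KYSE150 values were 22.8, 25.0 and 25.1 FPKM in hypoxia and 23.8, 28.1 and 23.8 FPKM in normoxia. The groups were apart in KYSE410 and overlapped in KYSE150. The log2 change was -0.47 ± 0.03 (SE; limma adjusted p = 2.365e-06) in KYSE410, where it was -0.27 under median-of-ratios scaling, and -0.05 ± 0.09 (limma adjusted p = 0.652) in KYSE150. MLX shares 770 of 4259 exonic bases with PSMC3IP on the opposite strand, which changed by 0.52 in KYSE410 and 0.32 in KYSE150, so the 2 genes cannot be told apart over that stretch.

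MLXIP (chr12:122078722-122147347, plus strand), the gene of MondoA, which resides at the mitochondrial surface and moves to the nucleus when glucose 6-phosphate rises, was lower in hypoxic KYSE410 cells. It had 3.98, 3.54 and 3.57 FPKM in hypoxic and 7.86, 8.38 and 7.98 FPKM in normoxic KYSE410 libraries. In KYSE150 it had 8.08, 7.12 and 7.50 FPKM in hypoxia and 10.5, 8.01 and 10.5 FPKM in normoxia. The KYSE410 groups were apart, with normoxia 2.18-fold above hypoxia, and the KYSE150 groups overlapped through normoxia replicate 2. The log2 change was -0.95 ± 0.06 (SE; limma adjusted p = 9.042e-07) in KYSE410 and -0.31 ± 0.11 (limma adjusted p = 0.0443) in KYSE150. The KYSE150 call was lost in 10 of 15 alternative settings, among them the omission of any 1 library other than normoxia replicate 2, with limma adjusted p up to 0.244. Longer transcripts had lower changes in KYSE410, with a Spearman correlation of -0.268 between change and length over genes, which are no independent replicates, against 0.0639 in KYSE150, and the longest MLXIP transcript has 8427 bases. Tested genes over 6000 bases had a median log2 change of -0.48 in KYSE410 and -0.06 in KYSE150, and with this trend removed the KYSE410 change of MLXIP was -0.45 and still called.

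MLXIPL (chr7:73593194-73624543, minus strand) encodes ChREBP, best known as the glucose-responsive activator of fat synthesis in liver. It had 0.208, 0.146 and 0.207 FPKM in hypoxic and 0.350, 0.571 and 0.404 FPKM in normoxic KYSE410 libraries, under the minimum for testing. In KYSE150 it had 6.07, 5.79 and 6.29 FPKM in hypoxia, against 7.76, 8.13 and 7.77 FPKM in normoxia. Hypoxic libraries were lower without overlap in both lines. The KYSE150 log2 change was -0.33 ± 0.07 (SE; limma adjusted p = 0.00525), and the call was lost under median-of-ratios scaling at -0.18 (limma adjusted p = 0.0665). With no minimum level, the KYSE410 change was -0.28 (limma adjusted p = 0.0186) on levels below 1 FPKM.

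Counted over the 6 genes other than TXNIP and ARRDC4, 5 were tested in KYSE410 and all 5 were called, 1 higher (ARRDC3) and 4 lower, where 83.1% of all 12054 tested genes were called, 31.2% higher and 51.9% lower. In KYSE150 3 of 6 were called, ARRDC3 higher and MLXIP and MLXIPL lower, where 62.3% of all 12692 tested genes were called, 23.5% higher and 38.8% lower. These shares are given beside the background and nothing is read from them, since the same contrast drew attention to the family. Over the same 6 genes, groups did not overlap for the 5 that were tested in KYSE410, where this held for 84.6% of tested genes (31.9% higher and 52.7% lower). MLXIPL, not tested in KYSE410, did not overlap there either. In KYSE150 the groups of ARRDC3 and MLXIPL did not overlap and those of the other 4 did, where non-overlap held for 69.6% of tested genes (27.0% higher and 42.6% lower). Nothing is read from these shares either. The median change of all tested genes was -0.21 in KYSE410 and -0.13 in KYSE150, and it was -0.03 and 0.02 under median-of-ratios scaling. Relative to the unscaled medians, the KYSE410 changes were 1.74 for ARRDC3, -0.26 for MLX, -0.29 for ARRDC1, -0.74 for MLXIP, -0.83 for ARRDC2 and -2.24 for ARRDC4. The KYSE150 changes relative to that median were 4.51 for TXNIP, 1.45 for ARRDC3, 1.14 for ARRDC4, 0.28 for ARRDC2, 0.25 for ARRDC1, 0.08 for MLX, -0.18 for MLXIP and -0.20 for MLXIPL.

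**Figure D3:**
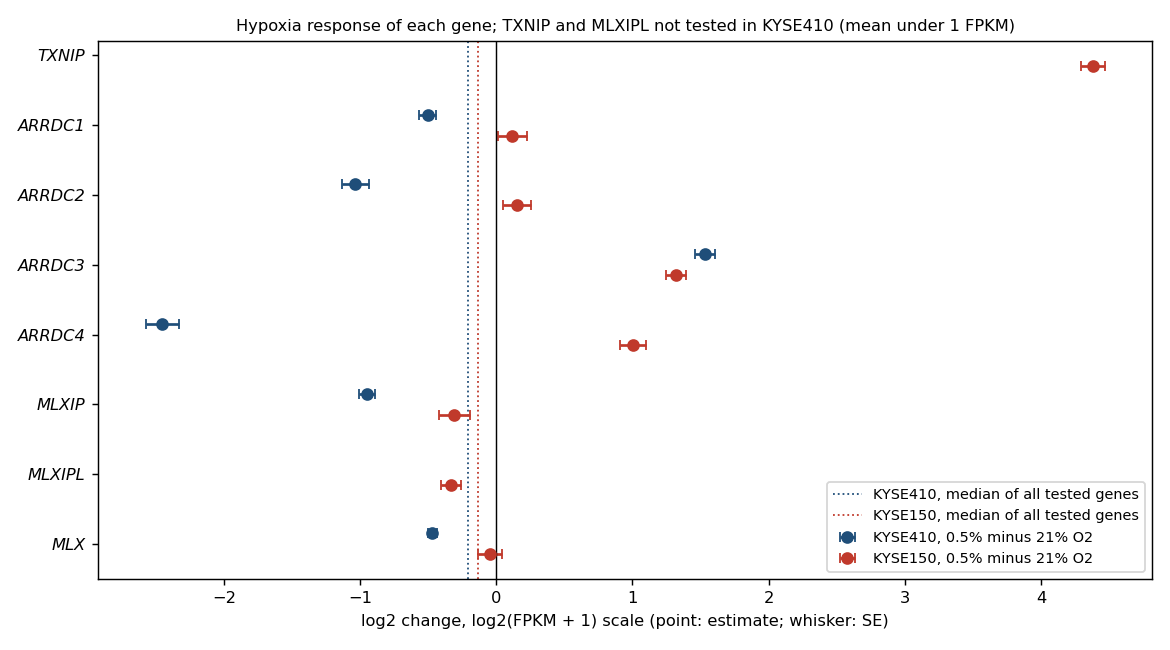
Hypoxia minus normoxia change of each gene on the log2(FPKM + 1) scale (points, with SE as whiskers) in KYSE410 and KYSE150, with the median of all tested genes as dotted lines. ARRDC3 lies at 1.53 and 1.32 in the lines, whereas ARRDC4 lies at -2.45 in KYSE410 and 1.00 in KYSE150.

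The response differed between the lines for 4 of the 6 genes, each time lower in KYSE410, where 63.3% of 12653 genes were called in the joint fit of 12 libraries, 27.3% higher and 36.0% lower. The difference, KYSE410 minus KYSE150, was -1.19 ± 0.15 (SE; limma adjusted p = 3.732e-05) for ARRDC2 and -0.62 ± 0.13 (limma adjusted p = 0.00121) for ARRDC1. It was -0.42 ± 0.09 (limma adjusted p = 0.00200) for MLX, with -0.66 after scaling to a common sum, and -0.64 ± 0.13 (limma adjusted p = 0.00111) for MLXIP. The MLXIP difference was -0.19 and no longer called (limma adjusted p = 0.0550) with the length trend removed. For MLXIPL the difference of 0.06 ± 0.10 did not pass the test (limma adjusted p = 0.637), and it was -0.52 (limma adjusted p = 0.0482) when 0.1 was added in place of 1. TXNIP and ARRDC4, described without a test, had differences of -4.38 ± 0.10 and -3.46 ± 0.16, the 3rd and the 5th lowest of all genes in that fit. TXNIP was at or near 0 in every KYSE410 library, where its change was 0.005 with no minimum level. Its difference is therefore almost entirely the KYSE150 rise with the sign turned, and no response could be measured in KYSE410. The median difference of all genes was -0.09.

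Set across the lines, levels come from tables that were deposited separately and assume that FPKM is comparable between them. In normoxia, 5 of the 6 genes differed, 2 higher and 3 lower in KYSE410, where 79.2% of all genes were called (40.4% higher and 38.8% lower). ARRDC3 was higher in KYSE410 by 0.92 on the log2 scale (limma adjusted p = 1.086e-07) and MLX by 0.18 (limma adjusted p = 0.0245), whereas MLXIPL was lower by a log2 difference of -2.63 (limma adjusted p = 3.508e-12), ARRDC2 by -0.41 (limma adjusted p = 0.00382) and MLXIP by -0.22 (limma adjusted p = 0.0408). The calls of MLXIP and MLX were lost in 12 and 6 of 21 alternative settings, and ARRDC1, at -0.20 (limma adjusted p = 0.0583), was called in 4 of them. In hypoxia all 6 differed, where 80.2% of all genes were called (36.6% higher and 43.6% lower). ARRDC3 was higher in KYSE410 by 1.13, and ARRDC1, ARRDC2, MLXIP, MLXIPL and MLX had differences of -0.82, -1.60, -0.87, -2.57 and -0.24 (limma adjusted p at most 0.00506). With 0.1 added in place of 1, the MLXIPL difference was -4.43 in hypoxia. The hypoxic difference of TXNIP was -6.51 and the normoxic one -2.13, and with 0.1 added they were -9.70 and -5.05. Because TXNIP was at or near 0 in KYSE410, the size of both is set by the added value and is no estimate of a fold.

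The order of the 8 genes by level changed with oxygen and line. In hypoxic KYSE410 cells ARRDC3 and MLX were highest with overlapping libraries, followed by ARRDC1, by ARRDC4 and MLXIP, which overlapped, and then by ARRDC2, MLXIPL and TXNIP. In normoxic KYSE410 cells MLX and ARRDC4 were highest and overlapped, followed by ARRDC1, MLXIP, the overlapping pair ARRDC3 and ARRDC2, MLXIPL and TXNIP. In hypoxic KYSE150 cells the order was TXNIP, MLX, ARRDC1, ARRDC3, ARRDC2, MLXIP, MLXIPL and ARRDC4, with no overlap between neighbours. In normoxic KYSE150 cells MLX and ARRDC1 led, MLXIP, MLXIPL and ARRDC2 followed with overlapping libraries, then came TXNIP and ARRDC3, which also overlapped, and ARRDC4 was last.

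Summed over TXNIP and the 4 ARRDC genes, alpha-arrestin mRNA was 36.6 ± 1.68 FPKM in hypoxic and 51.7 ± 4.98 FPKM in normoxic KYSE410 cells, and 129 ± 2.74 FPKM in hypoxic and 30.7 ± 2.71 FPKM in normoxic KYSE150 cells (SD, n = 3 each). The leading gene differed by group. In KYSE410, ARRDC3 made up 58.4% of the sum in hypoxia and 13.1% in normoxia, and ARRDC4 made up 10.7% in hypoxia and 50.1% in normoxia. In KYSE150, TXNIP made up 70.8% in hypoxia and 11.2% in normoxia, and ARRDC1 made up 13.2% in hypoxia and 50.9% in normoxia. The sum of MLX, MLXIP and MLXIPL was 24.3 FPKM in hypoxic and 37.2 FPKM in normoxic KYSE410 cells, and 37.9 FPKM in hypoxic and 42.8 FPKM in normoxic KYSE150 cells. MLXIPL took 0.770% of it in hypoxic and 1.19% in normoxic KYSE410 cells, against 16.0% in hypoxic and 18.4% in normoxic KYSE150 cells.

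**Figure D4:**
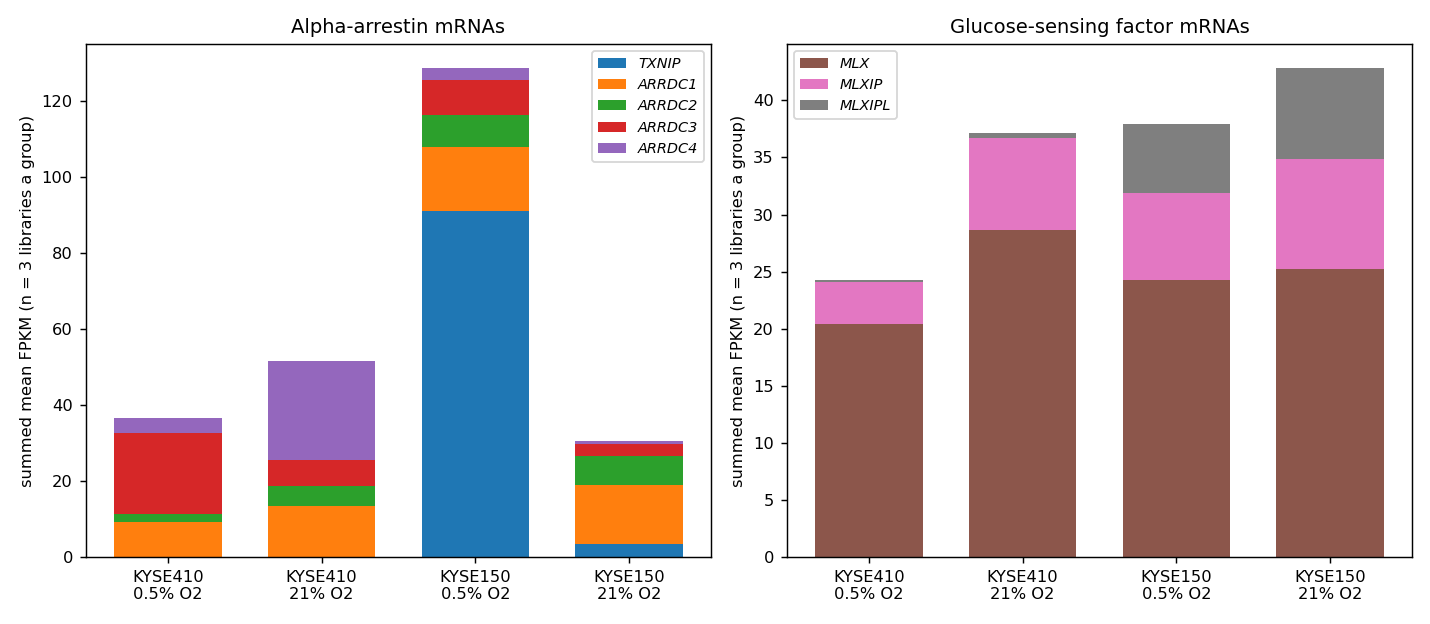
Summed mean FPKM of the alpha-arrestin genes (left) and of the glucose-sensing factors (right) in each group of 3 libraries, with each gene as a coloured segment. TXNIP makes up 70.8% of the alpha-arrestin sum in hypoxic KYSE150 cells, ARRDC3 58.4% in hypoxic and ARRDC4 50.1% in normoxic KYSE410 cells.

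Genes for glucose entry and its first steps, which supply the glucose 6-phosphate that the factors sense, rose in both lines. All 6 tested genes of this list rose in KYSE410 (median log2 change 1.50, against -0.21 for all genes), and 5 of 7 rose and 2 fell in KYSE150 (median 1.86, against -0.13). Among all genes tested, 31.2% were called higher and 51.9% lower in KYSE410, and 23.5% higher and 38.8% lower in KYSE150, which is the background for this and the following list counts. The list counts and medians are not corrected for the trend over transcript length, whose Spearman correlation with the change was -0.268 in KYSE410 and 0.0639 in KYSE150. SLC2A1, the GLUT1 transporter, averaged 111 ± 1.62 FPKM in hypoxic and 38.9 ± 0.993 FPKM in normoxic KYSE410 cells, and 92.8 ± 5.63 FPKM in hypoxic and 24.7 ± 0.606 FPKM in normoxic KYSE150 cells (SD, n = 3 each). HK2, which makes glucose 6-phosphate, changed by 1.51 in KYSE410 and 2.60 in KYSE150, and the transporter gene SLC2A3 by 3.94 in KYSE410 and 2.94 in KYSE150. GPI, which isomerises glucose 6-phosphate, rose by 2.21 in KYSE410 and 1.93 in KYSE150. SLC2A1 and HK2 rose in KYSE410, which had hardly any TXNIP mRNA, and in KYSE150, where TXNIP mRNA rose. A relation between these levels was not tested.

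Reported targets of MondoA or ChREBP other than the 8 genes did not move together. In KYSE410 2 of 7 tested genes rose and 3 fell (median -0.02), and in KYSE150 3 of 9 rose and 4 fell (median -0.02). KLF10, a zinc-finger repressor reported to be induced by ChREBP, changed like ARRDC4 in direction in each line, at -1.11 ± 0.11 (SE; limma adjusted p = 2.149e-05) in KYSE410 and 1.11 ± 0.08 (limma adjusted p = 2.294e-05) in KYSE150, a difference of -2.23 between the responses (limma adjusted p = 2.705e-07). It averaged 8.97 FPKM in hypoxic and 20.8 FPKM in normoxic KYSE410 cells, and 46.9 FPKM in hypoxic and 21.1 FPKM in normoxic KYSE150 cells. SCD, a fatty acid desaturase, rose by 0.42 in KYSE410 and 1.02 in KYSE150. ACACA, acetyl-CoA carboxylase, changed by -0.98 in KYSE410, and FASN, fatty acid synthase, by 0.84 in KYSE150. The 4 genes that fell in KYSE150 were FGF21 (-2.29), TKFC (-0.51), KHK (-0.47) and ELOVL6 (-0.46). FGF21 averaged 3.92 FPKM in normoxic KYSE150 cells and was listed at 0 in all 3 hypoxic libraries. In KYSE410 it averaged 0.504 FPKM in normoxia and was also listed at 0 in all 3 hypoxic libraries.

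Relatives of MLX in the Myc and Max network split by member. In KYSE410 2 of 8 rose and 4 fell (4 rose and 3 fell under median-of-ratios scaling), and in KYSE150 5 of 8 rose and 1 fell. MXI1, a Max partner that opposes Myc, rose by 1.93 in KYSE410 and 2.37 in KYSE150. MXD3, another Max partner that opposes Myc, rose by 2.10 in KYSE150, and its change of 0.21 in KYSE410 did not pass the test (limma adjusted p = 0.121). MYC averaged 4.12 FPKM in hypoxic and 12.7 FPKM in normoxic KYSE410 cells (log2 change -1.42; limma adjusted p = 2.584e-07), against 79.8 FPKM in hypoxic and 74.2 FPKM in normoxic KYSE150 cells, where the change of 0.10 did not pass the test (limma adjusted p = 0.322). MAX fell by 0.67 in KYSE410 and by 0.71 in KYSE150.

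The thioredoxin system, whose cytosolic protein TXNIP binds, differed between lines. In KYSE410 7 of 10 tested genes rose and 2 fell (median 0.57), and in KYSE150 1 of 10 rose and 5 fell (median -0.27). These values too are not corrected for the KYSE410 trend over transcript length. TXN, the gene of thioredoxin itself, averaged 537 ± 12.2 FPKM in hypoxic and 293 ± 15.5 FPKM in normoxic KYSE410 cells (log2 change 0.87; limma adjusted p = 2.143e-07), against 207 ± 4.0 FPKM in hypoxic and 220 ± 36.0 FPKM in normoxic KYSE150 cells (SD, n = 3 each), a change of -0.08 that did not pass the test (limma adjusted p = 0.566). TXNRD1, the reductase that recharges thioredoxin, fell by 3.21 in KYSE410 and by 2.28 in KYSE150. PRDX1, a peroxiredoxin that removes hydrogen peroxide, rose by 1.37 in KYSE410 and fell by 0.39 in KYSE150. PRDX2, another peroxiredoxin, rose in both lines, by 1.00 in KYSE410 and 0.45 in KYSE150. In the test of the difference between lines, 7 of the 10 genes were higher and 1 was lower in KYSE410, with 0.96 for TXN (limma adjusted p = 6.080e-05) and -0.93 for TXNRD1 (limma adjusted p = 5.266e-05). Across all genes 27.3% were higher and 36.0% lower in that test.

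Of the NEDD4-family ligases that arrestins recruit, 6 of 7 tested genes fell in KYSE410 (median -0.68, against -0.21 for all genes, of which 51.9% were called lower) and none was called higher, whereas in KYSE150 2 rose, 2 fell and 3 were not called (median 0.03). In the test of the difference between lines 5 of the 7 were lower in KYSE410 and none was higher, against 36.0% lower and 27.3% higher of all genes. Under median-of-ratios scaling 1 of the 7, not called otherwise, was higher in hypoxic KYSE410 cells. The ligase counts and medians are not corrected for the KYSE410 trend over transcript length, so the median of all genes may be an unlike comparator. NEDD4L averaged 6.87 FPKM in hypoxic and 24.7 FPKM in normoxic KYSE410 cells, a log2 change of -1.71. ITCH fell by 0.64 in KYSE410 and by 0.60 in KYSE150, and NEDD4 by 1.54 in KYSE410 and by 0.67 in KYSE150. The ESCRT partners and reported cargoes gave 2 rises and 7 falls among 12 tested genes in KYSE410, with 4 rises and 3 falls under median-of-ratios scaling, and 3 rises and 4 falls among 11 in KYSE150, with 5 rises and 3 falls under that scaling. Other arrestin-fold genes changed little: 2 of 4 fell in KYSE410 and 2 of 5 in KYSE150, and the median was -0.17 in KYSE410 and -0.18 in KYSE150, close to that of all genes. ARRDC5, the remaining alpha-arrestin gene, averaged under 0.2 FPKM in all 4 groups.

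For AMPK, the energy-sensing kinase that phosphorylates TXNIP and marks it for degradation, 6 of 6 tested genes for subunits and the upstream kinase STK11 fell in KYSE410 (median -0.63, against -0.21 for all genes, of which 51.9% were called lower). In KYSE150 1 of 6 rose and 4 fell (median -0.40, against -0.13). The tested genes were not the same in the lines. STK11 averaged 0.147 FPKM in hypoxic and 0.144 FPKM in normoxic KYSE150 cells and was not tested there. PRKAA2 was tested in KYSE150 only, and averaged 0.00653 FPKM in hypoxic and 0 FPKM in normoxic KYSE410 cells. PRKAG2 fell by 1.71 in KYSE410, and PRKAB1 fell by 1.23 in KYSE410 and by 1.04 in KYSE150.

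**Figure D5:**
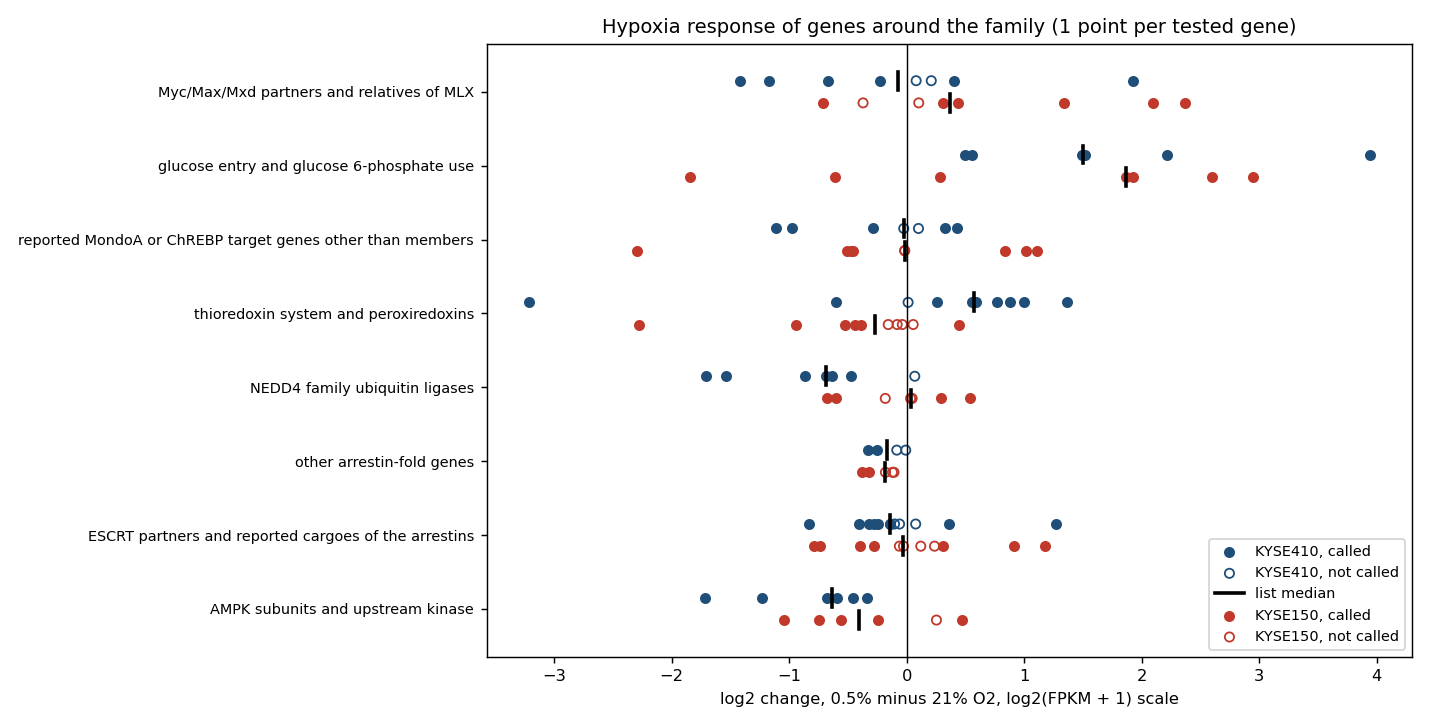
Hypoxia minus normoxia change on the log2(FPKM + 1) scale for each tested gene of 8 lists around the family (filled when called, open when not), KYSE410 above KYSE150, with the list median as a black bar. The glucose entry list lies to the right in both lines (medians 1.50 in KYSE410 and 1.86 in KYSE150), whereas the NEDD4 ligases have medians of -0.68 in KYSE410 and 0.03 in KYSE150.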

How the data were processed

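Messenger RNA was captured from TRIzol-extracted total RNA and sequenced in 12 libraries, per the labels' protocols. HISAT2 2.2.1, fastp 0.22.0, bcl2fastq 2.20 and the build hg38 are named, per the submitters' processing notes. Which program and annotation gave the values, and whether strand was used, is not given in the sources used here. Deposited values are FPKM, which the authors supplied separately for KYSE410 (30106 genes) and KYSE150 (30703 genes). That unit is an inference from the data: a library's values add up to 351501 to 425094, and weighting them by the longest GENCODE 29 transcript gives 0.899 to 1.003 of the expected total. The KYSE410 sums were 415926 to 425094 in hypoxic and 351501 to 356994 in normoxic libraries, without overlap. In KYSE150 the sums overlapped, at 377909 to 382990 in hypoxia and 366156 to 413967 in normoxia. Low values showed no steps of whole reads, so read depth could not be recovered, and intervals for counting error are left out. A library had 22787 to 24667 genes above 0.

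Genes averaging 1 FPKM or more were fitted on the log2(FPKM + 1) scale by limma 3.58.1 (R 4.3.3; trended empirical Bayes), within each line (6 libraries; 12692 genes in KYSE150 and 12054 in KYSE410) and over all 12 libraries for the difference between lines (12653 genes). Tests were two-sided and adjusted over all genes tested. Each fit was tested on simulated data. Because no label states that replicates are separate cultures, the p-values reflect only the scatter of these libraries, which may be technical. Members, lists and the naming rule were chosen with earlier results of these data known: of each list and line, up to 3 called genes with the largest change and a mean of at least 5 FPKM could be named, and SLC2A1, HK2, TXN, MYC, ITCH and KLF10 always. For TXNIP and ARRDC4 the rule also took the 3 genes most alike in pattern, of which 1 is not reported here. ARRDC5, the reported targets that fell in KYSE150, markers, promoter motifs and neighbouring genes were described outside that rule. Alternatives covered the pseudocount (0.1), the minimum level (none or 5 FPKM), scaling (median of ratios, common sum), a threshold of 0.01, the replicate number as a block, a transcript length trend (lowess, span 0.3; 93.2% and 93.4% of tested genes had a length in KYSE150 and KYSE410), and each library left out. Tables and plots were made with pandas 2.3.3, numpy 2.4.6 and matplotlib 3.10.9 under Python 3.11.15.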

Additional observations from a re-analysis of the deposited data

Results flagged for a closer look

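The response to hypoxia differed between KYSE410 and KYSE150 for 4 of the 6 genes tested, by the interaction of line and oxygen over 12 libraries, which called 63.3% of all 12653 genes, so a share of this size is near the background. The log2 difference, KYSE410 minus KYSE150, was -1.19 for ARRDC2, -0.62 for ARRDC1, -0.64 for MLXIP and -0.42 for MLX (limma adjusted p at most 0.00200). With the trend over transcript length removed, the MLXIP difference was -0.19 and no longer called (limma adjusted p = 0.0550). In ARRDC2, ARRDC1 and MLX all 3 hypoxic KYSE410 libraries lay below all 3 normoxic ones while the KYSE150 groups overlapped, and MLXIP showed the same overlap in KYSE150. For TXNIP and ARRDC4, whose differences were known when the genes were chosen, the values were -4.38 and -3.46, given without a test. Because TXNIP was at or near 0 in every KYSE410 library, its value is almost entirely the KYSE150 rise with the sign turned. ARRDC4 was lower in 3 of 3 hypoxic KYSE410 libraries and higher in 3 of 3 hypoxic KYSE150 libraries than in any normoxic library of the line.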

How the results depend on the processing

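With 1 library left out at a time, the genes called numbered 9732 to 9785 in KYSE410 (10017 with all), 6646 to 9417 in KYSE150 (7906), 7446 to 8657 for the difference in response (8013), 9564 to 10312 between lines in normoxia (10019) and 9708 to 10750 between lines in hypoxia (10149). Of the genes other than TXNIP and ARRDC4, 5 of 5 were called in KYSE410 (83.1% of all genes with all libraries), 2 to 4 of 6 in KYSE150 (62.3%), 4 of 6 for the difference (63.3%), 3 to 5 of 6 in normoxia (79.2%), with 3 without KYSE150 normoxia replicate 3 or KYSE410 normoxia replicate 2, and 6 of 6 in hypoxia (80.2%). With the length trend removed 5 of 6 were called in KYSE150, and at a threshold of 0.01 3 of 6 were called between lines in normoxia. A minimum of 5 FPKM, which leaves 8181 genes to test, gave 6608 calls between lines in normoxia and 6695 in hypoxia. Of the log2 changes of these 6 genes under settings that kept all libraries, 229 kept direction and side of the threshold, 13 lost the call, 8 gained it and 7 turned direction; with a library left out the numbers were 261, 17, 3 and 1. None of the turned values was called with the settings of the report. MLX in KYSE150 turned to 0.12 under median-of-ratios scaling and with the length trend removed, and ranged from -0.088 to 0.029 with 1 library left out, positive only without normoxia replicate 2. The MLXIPL difference turned to -0.52 with a pseudocount of 0.1, with or without the minimum level, to -0.023 under median-of-ratios scaling and to -0.0074 with a common sum, and the ARRDC3 difference turned to -0.021 with a common sum.

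Higher calls were 3763 of 10017 in KYSE410, against 4854 of 10014 under median-of-ratios scaling, 2737 of 10287 with a common sum and 4661 of 9242 with the length trend removed. In KYSE150 they were 2981 of 7906, against 4013 of 7686 under median-of-ratios scaling and 4085 of 8106 with the length trend removed, and for the difference in response 3453 of 8013, against 2356 of 8379 with a common sum. The same replicate number did not mark a shared deviation (r from -0.0450 to 0.0195 in KYSE410 and from -0.0686 to 0.0837 in KYSE150, across genes). With the replicate block the calls numbered 9931 in KYSE410, 7757 in KYSE150, 7855 for the difference, 9952 in normoxia and 10068 in hypoxia, and the block changed no count called among the 6 genes (5, 3, 4, 5 and 6). The pseudocount of 0.1 without a minimum level was added after the data were seen. The causes of these changes were not tested.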
